A study of Mus musculus with 9 samples.

Results

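Runx1, Runx2 and Runx3 encode the mouse RUNX transcription factors, and Cbfb encodes CBFβ, the partner that all RUNX proteins share. The open chromatin around these 4 genes, of 20661 protein-coding genes, was examined in stem and progenitor cells of the bone marrow. Peaks inside each gene or within 100 kb of its ends on the mm10 build were taken from the 9 deposited peak lists, and peaks that overlapped were merged into regions. This gave 199 of 117465 regions, with 53 at Runx1, 58 at Runx2, 55 at Runx3 and 33 at Cbfb.

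The assay was ATAC-seq, in which the transposase Tn5 places sequencing adapters into accessible DNA. Multipotent progenitors (MPPs) and long-term haematopoietic stem cells (LT-HSCs) were sorted from C57BL/6 mice lacking both RXRα and RXRβ (KO), nuclear receptors that bind DNA with other receptors, and from wild-type mice (WT). The libraries were MPP KO 1 and 2, MPP WT 1 and 2, LT-HSC KO 1, 2 and 4, and LT-HSC WT 2 and 3. Lineage-negative cells of pooled animals were enriched before sorting, per the labels' protocols, while no label gives the age of the mice or how the receptor genes were deleted. No label says that replicates were separate animals or pools, and p-values here therefore cover the spread among libraries only, which may be technical. Peak lists hold no read coverage, so the deletion itself was not checked.

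RUNX proteins bind DNA through the Runt domain, and CBFβ, which does not touch DNA itself, raises their affinity and protects them from degradation. In the mouse, Runx1 is needed for the first blood stem cells to arise from endothelium, and it later supports megakaryocytes and lymphocytes. Runx2 is the master regulator of bone-forming cells, and Runx3 controls T cell and sensory neuron fates. Runx1 and Runx3 are each read from a distal promoter, P1, and a proximal promoter, P2, that give proteins with different amino ends. The gene annotation used here lists 1 start each for Runx2 and Cbfb. Any further promoter of these genes was therefore not counted as a promoter.

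The 4 MPP lists held 78189 to 86353 peaks and the 5 LT-HSC lists 22690 to 71586, so an MPP list had more room for a weak peak. Each comparison of levels therefore used the 22690 strongest peaks of each list, the length of the shortest one, which are called equal-length lists here. Rank 1 is the peak with the highest deposited −log10 q-value in its list, and a lower rank number means a stronger peak relative to the rest of that library. LT-HSC KO 1 and KO 2 stood apart. Over all regions of the equal-length lists the Jaccard index (regions held by both of those held by either) was 0.658 between them and 0.500 to 0.555 with the other LT-HSC libraries, which had 0.677 to 0.760 among themselves. Regions at 8 LT-HSC marker genes numbered 9 to 11 in MPP libraries, against 9 in LT-HSC KO 1 and 16 to 20 in the other LT-HSC libraries. Not every gene followed this sum. Fgd5 had 1 to 2 in MPP and 0 to 2 in LT-HSC libraries, Procr 0 to 1 in both, and Hoxb5 1 in MPP KO 1 alone. Regions at 4 MPP markers numbered 10 to 12 in MPP and 4 to 7 in LT-HSC libraries. Flt3 had 6 to 7 in MPP and 1 to 4 in LT-HSC libraries, and Cd48 1 to 2 and 0 to 1. Cd34 had 2 in each MPP library and 0 to 2 in LT-HSC libraries, and Mki67 had 1 in every library. The 4 B cell markers had 0 regions in the equal-length list of any library, and 4 mature myeloid markers had 2 to 3 in MPP and 0 in LT-HSC libraries, all at Itgam and Adgre1, with Ly6g and S100a8 at 0. T cell markers had 2 in each MPP and 1 in each LT-HSC library, stromal and endothelial markers 3 to 4 in MPP and 2 to 4 in LT-HSC libraries, and mature erythroid markers 0 to 1 in both. The part of such cells in the results was not tested. In sorted bulk cells, fewer cells with an open region and less opening per cell cannot be told apart.

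The RUNX genes carry RUNX sites at their own first promoters. RefSeq promoter windows of GRCm38.p6, the assembly behind mm10, run from 250 bases before to 50 bases after each start, and all 6 windows of the 4 genes lay inside a merged region. An 18-base stretch, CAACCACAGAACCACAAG, was the longest common to the windows of Runx1 P1, Runx2 and Runx3 P1. It holds the RUNX motif TGTGGT 2 times on the opposite strand, where it reads ACCACA. Of 32851 promoter windows in the table, 4 (0.0122%) contained it, and the other one belonged to Gm16225, which starts beside Runx3. The stretch was chosen after the sequences were seen. The lines below give it with its flanks on the strand of the gene, with capitals marking RUNX motifs; it begins at +27 of Runx1 P1, +22 of Runx2 and −136 of Runx3 P1, counting the first transcribed base as +1.
Runx1 P1, chr16:92826025-92826053, minus strand: ataaacaACCACAgaACCACAagttgggt
Runx2, chr17:44814583-44814611, minus strand: acaaacaACCACAgaACCACAagTGCGGT
Runx3 P1, chr4:135120504-135120532, plus strand: tccctcaACCACAgaACCACAaggccagg

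Motifs TGTGGT and TGCGGT, searched on both strands, numbered 2 at Runx1 P1, 4 at Runx2 and 2 at Runx3 P1, and 0 at Runx1 P2, Runx3 P2 and Cbfb. Over all promoter windows 22.4% held at least 1 of them and 2.86% held 2 or more. The ETS motif AGGAAG occurred at Runx1 P1, Runx2 and Cbfb, against 35.4% of all windows. The GATA motif AGATAA occurred in 0 of the 6 windows, against 11.2% of all. The E-box CAGATG occurred in 0, against 17.2%, and the E-box CAGCTG in 0, against 16.3%. The windows also differed in CG dinucleotides, with 2 at Runx1 P1, 2 at Runx2, 8 at Runx3 P1, 30 at Cbfb, 35 at Runx1 P2 and 45 at Runx3 P2, against a median of 7 over all windows. The 250 bases before 3 of these starts are shown because their peaks behaved differently in the lists, with capitals again marking RUNX motifs.
Runx1 P1, chr16:92826075-92826324, minus strand: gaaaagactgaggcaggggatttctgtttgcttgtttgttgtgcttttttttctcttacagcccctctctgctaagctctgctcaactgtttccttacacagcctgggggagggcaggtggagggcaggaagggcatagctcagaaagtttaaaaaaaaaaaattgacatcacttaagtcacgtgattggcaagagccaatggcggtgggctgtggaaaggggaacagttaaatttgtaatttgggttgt
Runx1 P2, chr16:92697330-92697579, minus strand: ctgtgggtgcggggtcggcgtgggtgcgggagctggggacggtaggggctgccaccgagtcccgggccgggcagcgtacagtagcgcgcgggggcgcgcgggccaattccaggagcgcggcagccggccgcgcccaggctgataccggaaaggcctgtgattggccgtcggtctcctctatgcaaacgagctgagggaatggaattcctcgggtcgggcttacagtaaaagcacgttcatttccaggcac
Runx3 P1, chr4:135120395-135120644, plus strand: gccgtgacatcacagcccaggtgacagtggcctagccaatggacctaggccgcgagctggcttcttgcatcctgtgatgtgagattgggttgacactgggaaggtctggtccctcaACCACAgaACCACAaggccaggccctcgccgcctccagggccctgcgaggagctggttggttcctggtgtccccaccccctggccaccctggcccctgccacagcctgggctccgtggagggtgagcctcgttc

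Of the 199 regions, 18 (9.05%) were held by all 9 libraries, beside 11.8% of all 117465 regions. All 4 MPP libraries but none of the LT-HSC libraries held 33 (16.6%, beside 14.1%), and 0 were held by all 5 LT-HSC libraries alone, beside 0.196% of all regions. A further 66 (33.2%, beside 28.5%) were held by all MPP libraries and part of the LT-HSC libraries, and 43 (21.6%, beside 20.6%) by part of the MPP libraries alone. Part of both held 20 (10.1%, as over all regions), and 19 (9.55%, beside 14.8%) were held by LT-HSC libraries alone, each of these in 1 or 2 of the 5. These shares were near those of all regions. The share held by all MPP libraries alone was 30.2% at Runx1, 12.1% at Runx2, 14.5% at Runx3 and 6.06% at Cbfb, beside 14.1% of all 117465 regions. None of the 6 promoter regions of the 4 genes was in that class. It took in 18 of 90 regions in gene bodies, 6 of 44 in 5′ flanks and 9 of 59 in 3′ flanks.

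Presence in the full lists was tested per region by Fisher's exact test (two-sided, 4 MPP against 5 LT-HSC libraries), which can reach significance for regions held by 3 to 6 libraries, with Benjamini-Hochberg adjustment over 52020 such regions. At Runx1, 16 of 29 tested regions were called as held more by MPPs (Fisher's exact test, adjusted p = 0.0245 for each). The numbers were 7 of 22 at Runx2, 8 of 31 at Runx3 and 2 of 15 at Cbfb. Over all tested regions 31.9% were called in this direction and 0.442% in the other, in which 0 of the 97 regions of the 4 genes were called. The joint share of the 4 genes, 34.02%, was near that background, and Runx1 alone stood at 55.2%. Every such call was a region of all MPP and none of the LT-HSC libraries, which entered the test through the MPP libraries alone, so these counts are descriptions. In equal-length lists the same test called 4 of 8 regions at Runx1, 2 of 5 at Runx2, 1 of 6 at Runx3 and 0 of 5 at Cbfb as held more by MPPs, where the background was 21.1%, and 0 of 24 as held more by LT-HSCs, where it was 10.9%. These calls too entered the test through the MPP libraries alone and are descriptions. The 33 regions of MPPs alone had a median width of 390 bases, against 659.5 bases for the 18 held by all libraries, and only 4 of the 33 were in the equal-length list of every MPP library.

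**Figure D1:**
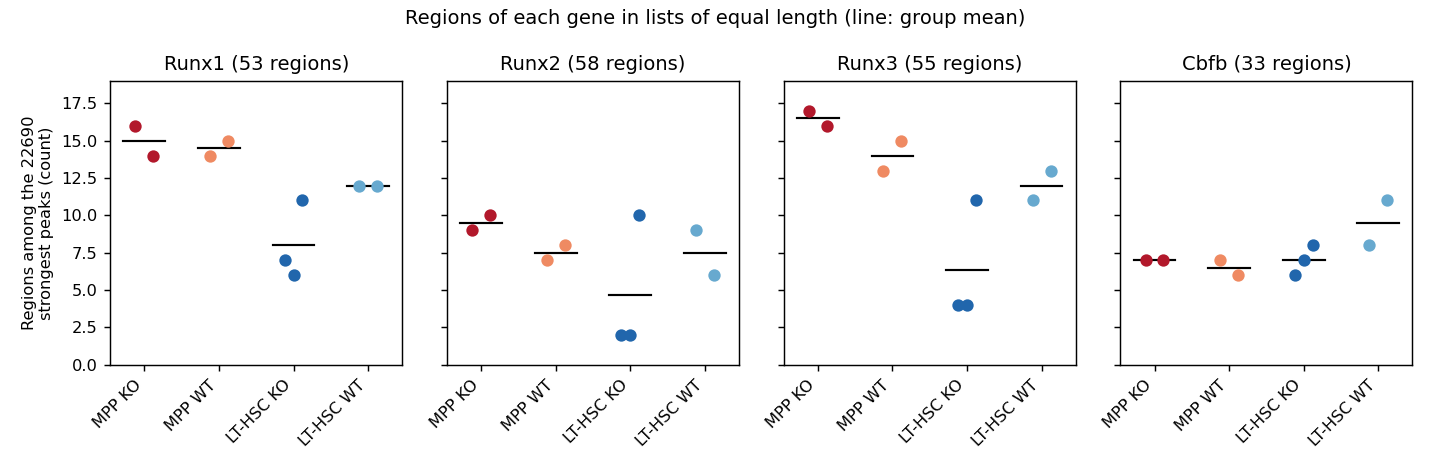
Number of regions in the equal-length list of each library within 100 kb of Runx1, Runx2, Runx3 and Cbfb, with MPP libraries left of LT-HSC libraries, KO left of WT, and each point 1 library. At Runx1 every MPP library (14 to 16) lies above every LT-HSC library (6 to 12), while at Cbfb the cell types overlap.

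Counted per library in the equal-length lists, Runx1 had 16, 14, 14 and 15 regions in MPP KO 1, KO 2, WT 1 and WT 2, against 7, 6, 11, 12 and 12 in LT-HSC KO 1, KO 2, KO 4, WT 2 and WT 3. The means were 14.8 ± 0.957 in MPPs (SD, n = 4) and 9.60 ± 2.88 in LT-HSCs (SD, n = 5). The groups did not overlap, but LT-HSC KO 1 and KO 2 set the low end. Runx3 had 17, 16, 13 and 15 regions in the MPP libraries in that order, against 4, 4, 11, 11 and 13 in the LT-HSC libraries. Its means were 15.3 ± 1.71 in MPPs and 8.60 ± 4.28 in LT-HSCs, and the groups met at 13. Runx2 had 9, 10, 7 and 8 regions in MPPs and 2, 2, 10, 9 and 6 in LT-HSCs, and Cbfb had 7, 7, 7 and 6 in MPPs and 6, 7, 8, 8 and 11 in LT-HSCs. The cell types overlapped at both genes.

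Two-sided exact permutation tests over the libraries (smallest p 0.00794) gave p = 0.0238 for Runx1, with 5.15 more regions in MPPs, and p = 0.0238 for Runx3, with 6.65 more. The exact p was 0.278 for Runx2 (2.70 more) and 0.317 for Cbfb (a difference of −1.25). After Benjamini-Hochberg adjustment over 18183 gene windows, no gene passed, these 4 included (adjusted p = 0.149 for Runx1 and Runx3 by the exact permutation test). Of all gene windows 0% passed in each direction, 16.7% had more regions in MPPs at an unadjusted p under 0.05 and 9.07% had fewer. In the full lists 58% of gene windows had more regions in MPPs after adjustment and 0.044% had fewer, and there MPPs held 42 to 44 regions at Runx1 against 7 to 25 in LT-HSCs, and 22 to 28 at Cbfb against 6 to 22. Without LT-HSC KO 1 and KO 2 the difference in equal-length lists was 3.08 for Runx1, 0.167 for Runx2, 3.58 for Runx3 and −2.25 for Cbfb.

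At Runx1 the distal promoter, an upstream region at −58.1 kb and a region inside the gene at 38.9 kb were stronger in MPPs. Inside the gene, 2 other regions, both at distances of known enhancers, ranked higher in every LT-HSC library than in any MPP library without passing the adjusted test. Runx1 (gene 12394) lies on the minus strand of chromosome 16 from 92601466 to 92826074, with P1 at 92826074 and P2 at 92697329, 128.7 kb further in. The P1 region (chr16:92825813-92826326) ranked 11445, 9616, 10112 and 6840 in MPP KO 1, KO 2, WT 1 and WT 2, against 15614, 18515, 24155, 14358 and 12998 in LT-HSC KO 1, KO 2, KO 4, WT 2 and WT 3. Every MPP library ranked it above every LT-HSC library. The difference of mean log2 rank was −0.82, where a negative value means a stronger rank in MPPs (exact permutation test, adjusted p = 0.0374). The P2 region (chr16:92697186-92697851) ranked 11961, 17172, 10877 and 10864 in MPPs, and 7026, 27782, 16486, 17445 and 14990 in LT-HSCs. The groups overlapped there, with a log2 difference of −0.24 (exact permutation p = 0.548).

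The rank test ran on regions in the equal-length list of at least 3 libraries, with a rank just past the list for libraries without the region, and adjusted p-values over 28189 regions. It called 7 of 17 tested regions at Runx1, 3 of 10 at Runx2, 4 of 15 at Runx3 and 1 of 10 at Cbfb as ranked higher in MPPs, against a background of 17.6%. It called 0 of these 52 as ranked higher in LT-HSCs, against 3.63%. Of the 15 calls, 7 (4 at Runx1, 2 at Runx2 and 1 at Runx3) had no LT-HSC library in the equal-length list, as did 57.4% of the 4964 calls over all regions. Such a region entered the test through MPP libraries alone, which fixed its direction and p, so its ranks are given below as a description with no test. The called regions at 82.8 and −61.6 kb of Runx3 and 83.6 kb of Cbfb had fewer than 3 LT-HSC libraries in that list. They too met the entry rule through the MPP libraries and are given as descriptions. The median log2 difference was −0.24 at Runx1, −0.09 at Runx2, −0.61 at Runx3 and −0.16 at Cbfb, beside −0.05 over all regions tested. The 15 calls all stood at the smallest p that the labellings allow, 0.00794. With any 1 library left out, the smallest exact p is 0.0179 or 0.0286, and 0 regions in the whole table could be called.

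**Figure D2:**
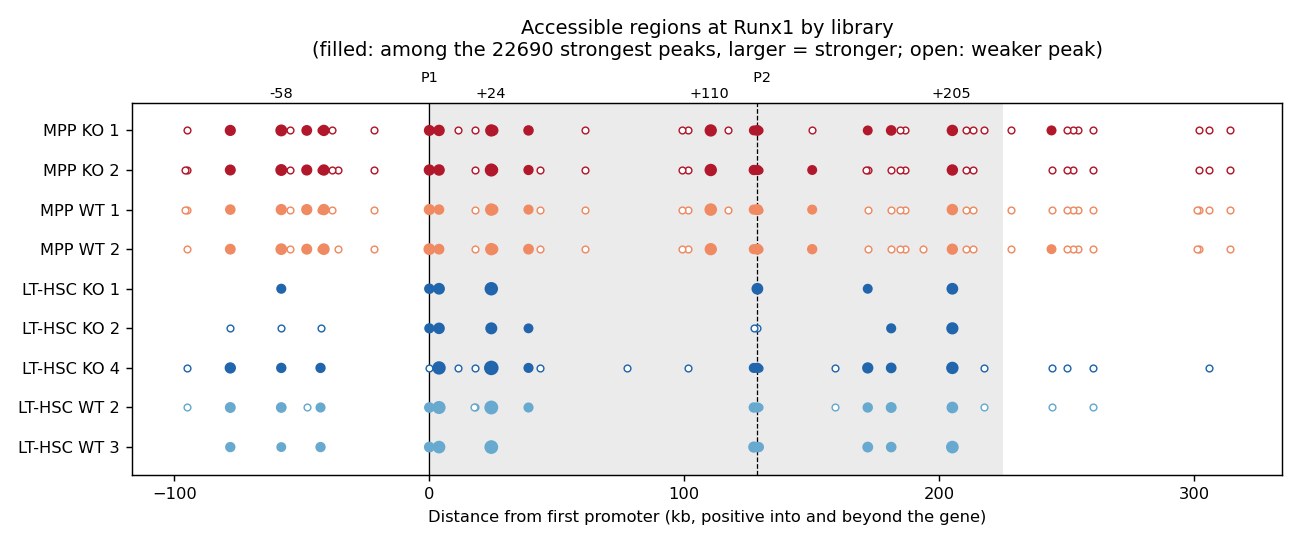
Regions along Runx1 and 100 kb of each flank by distance from P1 in kb, positive into the gene, with 1 row per library (MPP rows above LT-HSC rows, KO above WT). Filled circles are peaks of the equal-length list, larger where stronger, open circles are weaker peaks, the grey band is the gene and lines mark P1 and P2; the region at 110.4 kb is marked in the 4 MPP rows and in 0 LT-HSC rows, and those at 3.8, 24.3 and 205.2 kb in all 9.

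Known mouse Runx1 enhancers are named by their distance from P1 in kb, and −59, +3, +23, +110 and another near the 3′ part of the gene were used here, all known from studies of mouse blood cells. Each had at least 1 region within 2 kb. Distance names depend on the build and the start site used, so a match is one of position only. The region 110.4 kb into the gene (chr16:92715476-92716169) ranked 4794, 4467, 4030 and 4908 in MPP KO 1, KO 2, WT 1 and WT 2, and had no peak in any of the 5 LT-HSC libraries, even in their full lists. Its fold enrichment as deposited by the authors was 22.96, 22.6, 22.97 and 21.7 in the MPP libraries. It had the strongest mean rank of the 33 regions of MPPs alone.

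The +23 position held 2 regions that lie 258 bases apart. The first, at 24.3 kb (chr16:92801520-92802085), ranked 4767, 2737, 4221 and 4562 in MPPs, and 2035, 5901, 826, 1453 and 1603 in LT-HSCs. All LT-HSC libraries except KO 2 ranked it above every MPP library. Its log2 difference was 1.09 towards LT-HSCs (exact permutation p = 0.0952, adjusted p = 0.178). The second, at 25.0 kb (chr16:92800786-92801261), ranked 13347, 17249, 14050 and 15229 in MPPs and had no peak in any LT-HSC library. Both are thus in the equal-length list of every MPP library, and the first in that of every LT-HSC library. Further in, at 38.9 kb, away from the known enhancer distances, a region (chr16:92786808-92787375) ranked 15929, 17983, 19555 and 13316 in MPPs. In LT-HSC KO 2, KO 4 and WT 2 it ranked 22499, 19750 and 19906, with no peak in KO 1 and WT 3. Its log2 difference was −0.38 (exact permutation test, adjusted p = 0.0374).

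The region at 3.8 kb (chr16:92821916-92822777) ranked 8614, 8411, 15973 and 13394 in MPPs, and 7174, 8065, 2142, 2675 and 3629 in LT-HSCs. Every LT-HSC library ranked it above every MPP library, and the log2 difference was 1.43 (exact permutation p = 0.0397, adjusted p = 0.103). The region at 205.2 kb (chr16:92620624-92621635) ranked 8929, 8798, 8774 and 9827 in MPPs, and 7090, 5248, 4484, 7514 and 3684 in LT-HSCs. Here too the cell types did not overlap, and the log2 difference was 0.75 (exact permutation p = 0.0238, adjusted p = 0.0679). These were the only 2 of the 52 tested regions with an unadjusted p under 0.05 towards LT-HSCs, and neither passed the adjustment. Without LT-HSC KO 1 and KO 2, the region at 24.3 kb joined them: the 3 remaining LT-HSC libraries then ranked the regions at 3.8, 24.3 and 205.2 kb above all 4 MPP libraries, with log2 differences of 2.02, 1.68 and 0.86 (exact permutation p = 0.0286 each, the smallest that 7 libraries allow). At 172.0 and −42.7 kb, away from the known enhancer distances, these 3 LT-HSC libraries also ranked above all MPP libraries, with log2 differences of 0.82 and 0.31. However, no MPP library had the region at −42.7 kb in its equal-length list, and MPP KO 1 alone had that at 172.0 kb. Both met the entry rule through LT-HSC libraries, so their ranks are a description. Over all regions tested in these 7 libraries, 26.5% of 25971 separated towards LT-HSCs.

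Upstream of P1, the region at −58.1 kb (chr16:92883745-92884384), beside the −59 position, ranked 6355, 6353, 9904 and 7348 in MPPs, against 20010, 28677, 16852, 13662 and 22287 in LT-HSCs. Every library held it, and every MPP library ranked it higher, with a log2 difference of −1.35 (exact permutation test, adjusted p = 0.0374). The region at −41.4 kb (chr16:92867208-92867777) ranked 9119, 8874, 8695 and 7322 in MPPs and had no peak in LT-HSCs. The region at −48.1 kb (chr16:92873861-92874444) ranked 13047, 10786, 10143 and 11392 in MPPs, and among LT-HSCs it was held by WT 2 alone, at 42828. Neither was in the equal-length list of an LT-HSC library. The other 2 ranked regions upstream did not separate the cell types with all 9 libraries. The region at −78.1 kb (chr16:92903923-92904434) ranked 10460, 11601, 15202 and 12894 in MPPs, and 32585, 9422, 12338 and 17377 in LT-HSC KO 2, KO 4, WT 2 and WT 3, with no peak in KO 1 (log2 difference −0.36, exact permutation p = 0.278). The region at −42.7 kb (chr16:92868485-92868954) ranked 32754, 32798, 43703 and 49631 in MPPs, and 28414, 17401, 20072 and 17575 in the same 4 LT-HSC libraries, with no peak in KO 1 (log2 difference 0.19 towards LT-HSCs, exact permutation p = 0.167). It entered the test through LT-HSC libraries alone, which fixed its direction. No region of the 3′ flank entered the rank test.

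**Figure D3:**
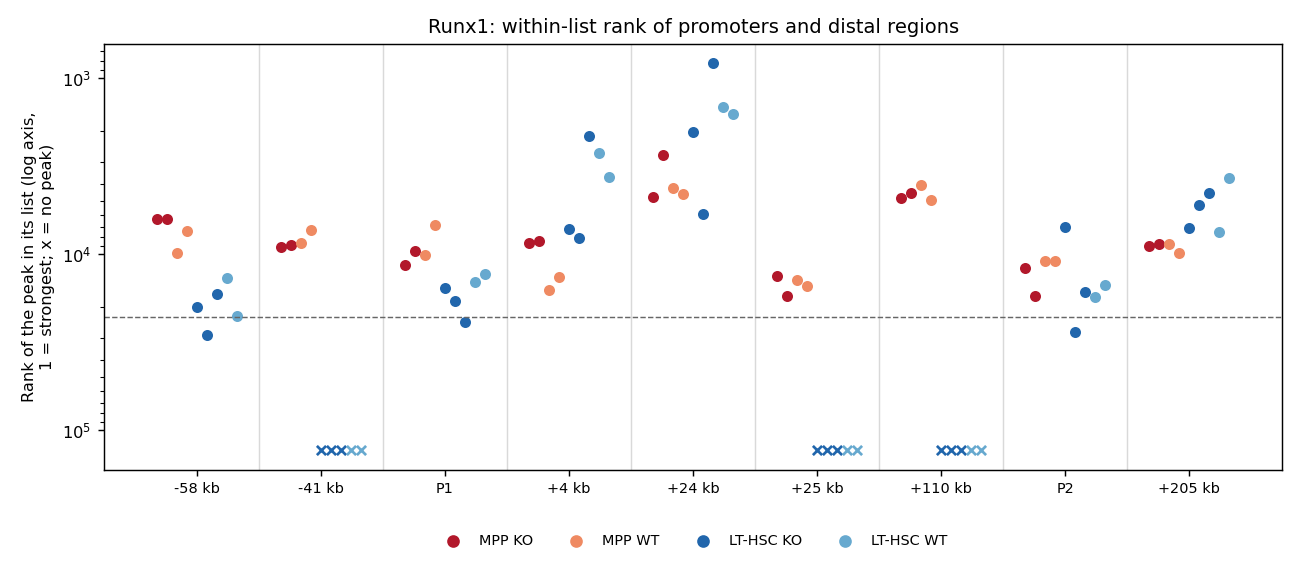
Rank in the full list of each library (log axis, strongest at the top) of Runx1 promoters and distal regions, MPP left of LT-HSC and KO left of WT, with crosses for libraries without a peak and a dashed line at rank 22690. At 110.4 and −41.4 kb every MPP library lies above every LT-HSC library, and at 3.8 and 205.2 kb every LT-HSC library lies above every MPP library.

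Counted over all 52 tested regions of the 4 genes, the cell types did not overlap in rank for 21 regions that ranked higher in MPPs and 2 that ranked higher in LT-HSCs, beside 23.4% and 11.9% of the 28189 regions tested. With LT-HSC KO 1 and KO 2 left out, the numbers were 21 and 10 of 51, beside 29.3% and 26.5% of 25971. The 10 comprised 5 regions at Runx1, 2 at Runx2, 3 at Cbfb and 0 at Runx3. Some of these 10, at each of Runx1, Runx2 and Cbfb, had no MPP library in the equal-length list. Such regions met the entry rule through LT-HSC libraries alone, which fixed their direction. Likewise, some of the regions that ranked higher in MPPs had no LT-HSC library in that list. All these counts are therefore descriptions.

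Runx2 was the gene with most regions and fewest that all libraries shared. Runx2 (gene 12393, chr17:44495987-44814797, minus strand) had 45 of its 58 regions inside the gene, and 2 of the 58 were held by all 9 libraries. Of its regions, 14 (24.1%) were held by 1 library only, beside 18.5% of all regions. The promoter region at its listed start (chr17:44814577-44815180) carries the most RUNX motifs of the 6 windows. It ranked 33198, 46642, 43862 and 41291 in MPP KO 1, KO 2, WT 1 and WT 2. In LT-HSCs it ranked 33037 in KO 2, 31270 in KO 4 and 36260 in WT 2, and KO 1 and WT 3 had no peak. It was thus outside the equal-length list of every library, unlike the first promoters of the other 3 genes.

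The strongest Runx2 regions were distal. The region at 159.9 kb from the start (chr17:44654426-44655002) ranked 3435, 2970, 5091 and 3627 in MPPs, against 20018, 10093, 6516, 5371 and 9084 in LT-HSCs. The cell types did not overlap, and the log2 difference of −1.30 fell just short after adjustment (exact permutation p = 0.0159, adjusted p = 0.0513). The region at 150.6 kb (chr17:44663874-44664370) ranked 9361, 12452, 10117 and 9244 in MPPs and had no peak in LT-HSCs. The region at 141.9 kb (chr17:44672269-44673207) ranked 10027, 10654, 13016 and 11466 in MPPs, against 24001, 40028 and 37446 in LT-HSC KO 2, KO 4 and WT 2, with no peak in LT-HSC KO 1 and WT 3. Neither had an LT-HSC library within the first 22690 ranks.

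The other Runx2 region called by rank, at 37.5 kb (chr17:44776675-44777814), lies in Runx2 but also covers the start of Supt3, which encodes a subunit of the SAGA coactivator and overlaps Runx2. It ranked 4495, 4861, 3801 and 3335 in MPPs, against 23837, 20796, 9070 and 9237 in LT-HSC KO 2, KO 4, WT 2 and WT 3, with no peak in KO 1. The log2 difference was −1.93 (exact permutation test, adjusted p = 0.0374), and KO libraries also ranked below WT libraries in each cell type. By contrast, the region 381.6 kb from the start, in the 3′ flank (chr17:44432524-44433325), was held by all 9 libraries at 8248, 8607, 8677 and 9132 in MPPs and 13420, 7140, 4561, 3634 and 9721 in LT-HSCs. Its cell types overlapped (log2 difference 0.33, exact permutation p = 0.381).

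**Figure D4:**
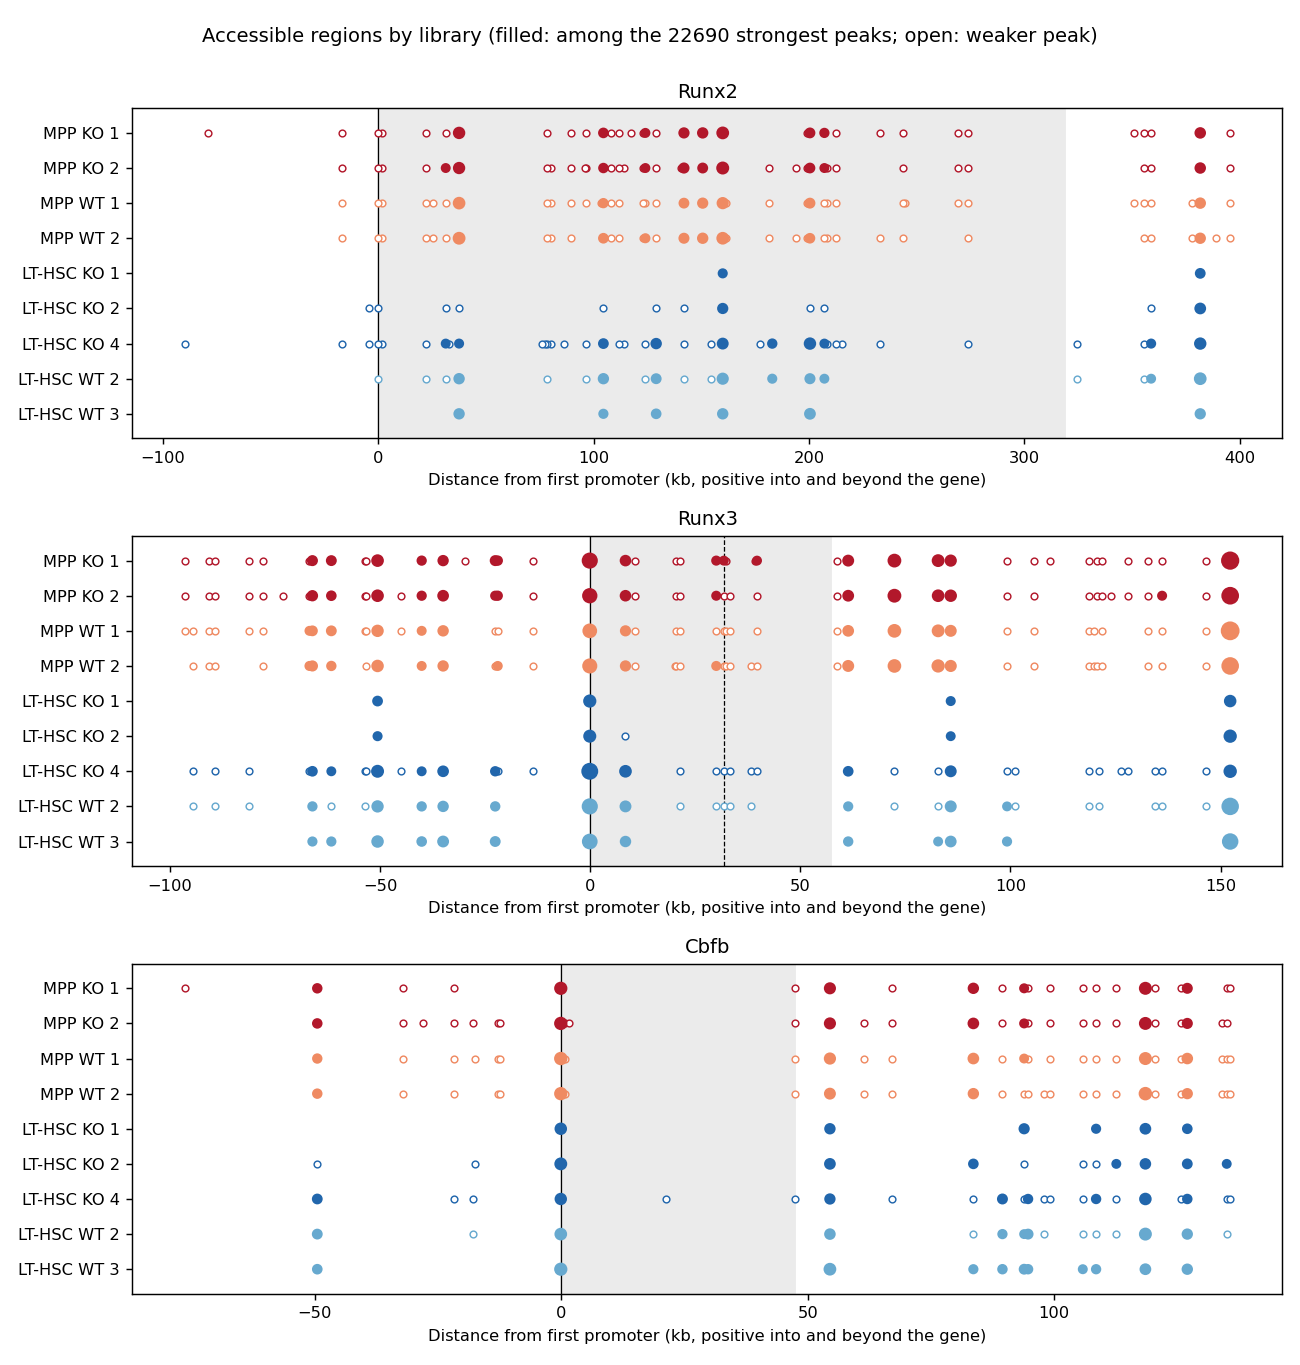
Regions along Runx2, Runx3 and Cbfb and 100 kb of each flank by distance from the first promoter in kb, with 1 row per library (MPP rows above LT-HSC rows, KO above WT), filled circles for peaks of the equal-length list (larger where stronger), open circles for weaker peaks and a grey band for the gene. At Runx3 the region at 72.4 kb is filled in the 4 MPP rows and open or absent in the LT-HSC rows.

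At Runx3 the distal promoter was among the strongest peaks of both cell types. The 4 rank calls towards MPPs lay in the flanks, while 2 of its 8 presence calls were inside the gene. Runx3 (gene 12399, chr4:135120645-135177990, plus strand) had 21.4 regions per 100 kb of window, the densest of the 4 genes, against 11.2 at Runx2, 12.5 at Runx1 and 13.3 at Cbfb. The P1 region (chr4:135120026-135120744) ranked 190, 413, 718 and 514 in MPP KO 1, KO 2, WT 1 and WT 2, against 2459, 2793, 89, 184 and 288 in LT-HSC KO 1, KO 2, KO 4, WT 2 and WT 3. LT-HSC KO 1 and KO 2 were the lowest and the other LT-HSC libraries among the highest, so the groups overlapped (log2 difference −0.29, exact permutation p = 0.810). Without LT-HSC KO 1 and KO 2 the log2 difference was 1.30 towards LT-HSCs (exact permutation p = 0.114). The P1 region also covers the start of Gm16225. The P2 region (chr4:135152099-135152656), 31.9 kb further in, ranked 21533, 28392, 32481 and 27151 in MPPs, against 40811 and 31980 in LT-HSC KO 4 and WT 2, with no peak in LT-HSC KO 1, KO 2 and WT 3.

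Beyond the 3′ end, 3 regions were called by rank. The region at 72.4 kb from P1 (chr4:135192726-135193336) ranked 1558, 1493, 1696 and 1764 in MPPs, against 36783 and 28034 in LT-HSC KO 4 and WT 2, with no peak in KO 1, KO 2 and WT 3. Its deposited fold enrichment was 25.9, 26.2, 26.8 and 26.8 in MPPs, against 8.39 in LT-HSC KO 4 and 7.50 in LT-HSC WT 2. No LT-HSC library had the region in its equal-length list. The region at 82.8 kb (chr4:135203175-135203722) ranked 3298, 3808, 3303 and 2343 in MPPs, against 30496, 30135 and 21962 in LT-HSC KO 4, WT 2 and WT 3. The region at 61.4 kb (chr4:135181763-135182273) ranked 6392, 6950, 7427 and 6164 in MPPs, against 14277, 18931 and 17291 in the same LT-HSC libraries. LT-HSC KO 1 and KO 2 had no peak in either region. The log2 difference at 61.4 kb was −1.49 (exact permutation test, adjusted p = 0.0374). At 82.8 kb it was −2.84, but LT-HSC WT 3 alone among LT-HSCs had that region in its equal-length list. The region at 82.8 kb thus entered the test through the MPP libraries, and its ranks are a description.

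The call in the 5′ flank, at −61.6 kb (chr4:135058925-135059278), ranked 12530, 14987, 12976 and 17343 in MPPs, against 22360, 25367 and 18875 in LT-HSC KO 4, WT 2 and WT 3, with no peak in KO 1 and KO 2. Its log2 difference was −0.60. Among LT-HSCs, KO 4 and WT 3 alone had it in their equal-length lists, so it entered the test through the MPP libraries and its ranks are a description. The region at −66.1 kb (chr4:135054207-135054782) also separated the cell types, at 11526, 9412, 13300 and 10784 in MPPs, against 14242, 18199 and 19238 in LT-HSC KO 4, WT 2 and WT 3, with no peak in KO 1 and KO 2. Its log2 difference of −0.78 fell short after adjustment (exact permutation p = 0.0159, adjusted p = 0.0513). The cell types overlapped at −50.6 kb, where the region (chr4:135069628-135070298) ranked 3766, 3910, 4547 and 4236 in MPPs, and 13464, 20333, 3025, 4782 and 4249 in LT-HSCs (log2 difference −0.77, exact permutation p = 0.341).

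LT-HSC KO 1 and KO 2 lacked many of the Runx3 regions that the other LT-HSC libraries held. Of the 13 Runx3 regions held by LT-HSC KO 4, WT 2 and WT 3, 8 (61.5%) were held by neither KO 1 nor KO 2, against 1 of 12 at Runx1, 0 of 6 at Runx2, 2 of 11 at Cbfb and 9.44% of 21738 regions overall. The LT-HSC KO 1 list was the shortest, with 22690 peaks, but LT-HSC WT 3 had 22878. What sets these libraries apart was not tested.

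The strongest MPP peak in the Runx3 window belongs to a neighbour. At 152.3 kb from P1 (chr4:135272611-135273263), the promoter of Clic4, a chloride channel family gene, ranked 21, 39, 11 and 43 in MPPs, against 4220, 2284, 2169, 48 and 137 in LT-HSC KO 1, KO 2, KO 4, WT 2 and WT 3. Every MPP library ranked it above every LT-HSC library, but the spread among LT-HSCs was wide and the log2 difference of −4.75 did not pass (exact permutation p = 0.0317, adjusted p = 0.0853). At the top of a list a small difference in rank is large on the log2 scale.

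Cbfb had a strong promoter in every library and the smallest share of regions seen in MPPs alone. Cbfb (gene 12400, chr8:105170674-105217989, plus strand) shares its window with 13 other protein-coding genes, among them Tradd, Hsf4 and E2f4, so most of its 33 regions lie beside other genes and 4 lie inside Cbfb itself. Its promoter region (chr8:105170144-105170921) ranked 2399, 2236, 2111 and 2278 in MPP KO 1, KO 2, WT 1 and WT 2, against 4243, 3197, 4551, 3733 and 2415 in LT-HSC KO 1, KO 2, KO 4, WT 2 and WT 3. The cell types met without overlapping, 2399 against 2415, and the log2 difference of −0.65 fell short after adjustment (exact permutation p = 0.0159, adjusted p = 0.0513). The deposited fold enrichment there was 21.2, 21.2, 22.3 and 21.1 in MPPs and 10.8, 16.0, 18.6, 15.7 and 14.3 in LT-HSCs.

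The 1 Cbfb call, at 83.6 kb from the start in the 3′ flank (chr8:105254067-105254900), ranked 9136, 7626, 7446 and 9035 in MPPs, against 14805, 23802, 24268 and 19021 in LT-HSC KO 2, KO 4, WT 2 and WT 3, with no peak in KO 1. Its log2 difference was −1.28. Among LT-HSCs, KO 2 and WT 3 alone had it in their equal-length lists, so it entered the test through the MPP libraries and its ranks are a description. It was not called when linear ranks replaced log2 ranks. The region at the 3′ end of Cbfb (chr8:105217949-105218341) ranked 45316, 39617, 34776 and 38285 in MPPs and 61729 in LT-HSC KO 4, with no peak in the other LT-HSC libraries.

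**Figure D5:**
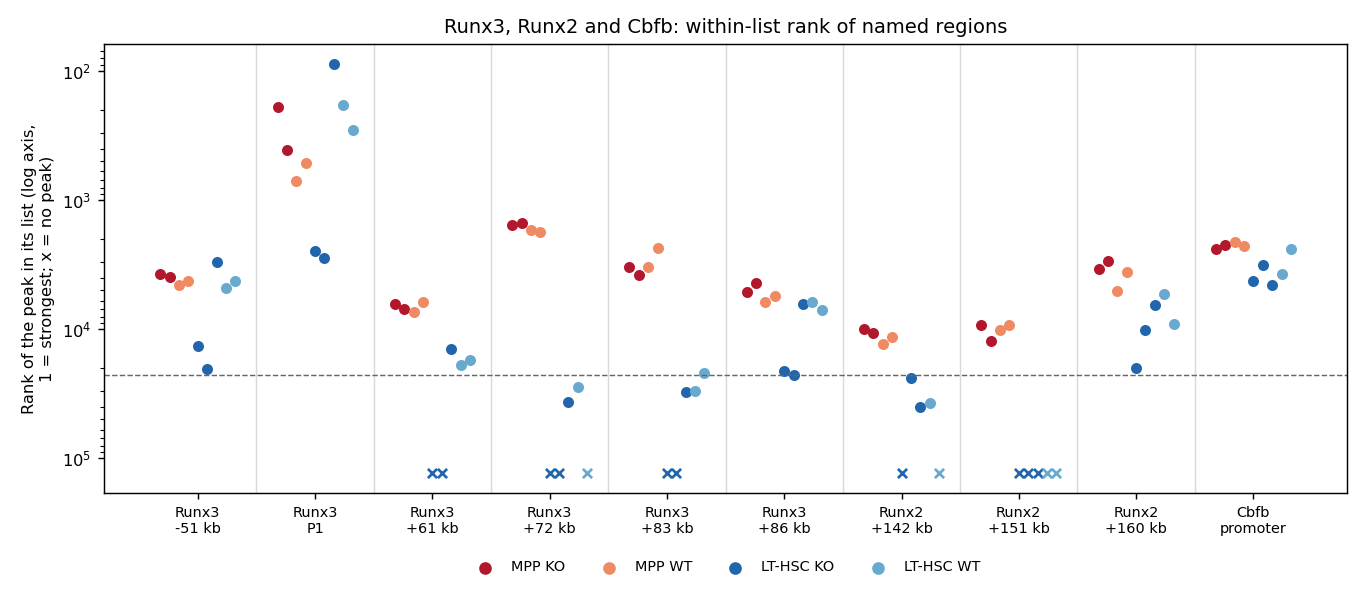
Rank in the full list of each library (log axis, strongest at the top) of regions at Runx3, Runx2 and Cbfb, MPP left of LT-HSC and KO left of WT, with crosses for libraries without a peak and a dashed line at rank 22690. The Runx3 region at 72.4 kb lies at 1493 to 1764 in MPP libraries and below the dashed line or without a peak in LT-HSC libraries.

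Loss of RXRα and RXRβ was compared within each cell type, KO against WT. No region and no gene window passed the adjusted tests. Presence could reach a p under 0.05 in 1565 regions, of which 0% passed after adjustment and 2.49% had an unadjusted p under 0.05 (exact conditional test stratified by cell type). Of these, 1 was at the 4 genes, and its unadjusted p was not under 0.05. By rank, 0% of 28189 regions passed after adjustment, and 3.28% ranked lower and 1.52% higher in KO at an unadjusted p under 0.05 (exact permutation within cell type, 60 labellings, smallest p 0.0167). At the 4 genes the numbers were 2 of 52 ranked lower and 0 ranked higher.

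Both of those 2 regions separated the genotypes in both cell types. The region over the Supt3 start in Runx2, at 37.5 kb, ranked 4495 and 4861 in MPP KO against 3801 and 3335 in MPP WT. In LT-HSCs it ranked 23837 and 20796 in KO 2 and KO 4, with no peak in KO 1, against 9070 and 9237 in WT. Its log2 rank was 0.83 higher in KO, meaning weaker (exact permutation p = 0.0167, adjusted p = 0.608). The region at 127.0 kb in the Cbfb window (chr8:105297344-105297862), beside E2f4, a cell cycle factor of the E2F family, ranked 11599 and 10879 in MPP KO against 8068 and 10051 in MPP WT. In LT-HSCs it ranked 14784, 13242 and 16107 in KO 1, KO 2 and KO 4, against 9568 and 9159 in WT. Its log2 rank was 0.48 higher in KO (exact permutation p = 0.0167, adjusted p = 0.608).

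Across the 52 regions tested by rank, 36 were weaker and 16 stronger in KO, with a median log2 difference of 0.09, beside 15789 weaker and 12400 stronger of all regions and a median of 0.04. The Clic4 promoter had a difference of 2.74 (exact permutation p = 0.05). At the known enhancer distances of Runx1 the log2 difference, KO minus WT, was −0.001 at 205.2 kb, 0.03 at 110.4 kb, 0.03 at 25.0 kb, 0.11 at 24.3 kb, −0.05 at 3.8 kb and −0.12 at −58.1 kb (exact permutation p = 1.00, 1.00, 1.00, 0.867, 0.917 and 0.617). The value at 3.8 kb averages opposite shifts, with a mean log2 rank of 13.06 in MPP KO against 13.84 in MPP WT, and 12.28 in LT-HSC KO against 11.61 in LT-HSC WT. The difference between the cell types in the genotype effect there was −1.46 (exact permutation p = 0.1).

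Regions per library in the equal-length lists gave no genotype call, with 0% of 18183 gene windows past the adjusted test and 0.324% with more and 1.34% with fewer regions in KO at an unadjusted p under 0.05. The mean was 15 in MPP KO and 14.5 in MPP WT at Runx1, and 8 in LT-HSC KO and 12 in LT-HSC WT. At Runx3 it was 16.5 in MPP KO and 14 in MPP WT, and 6.33 in LT-HSC KO and 12 in LT-HSC WT. Runx2 had 9.50 and 7.50 in MPP KO and WT, and 4.67 and 7.50 in LT-HSC KO and WT, while Cbfb had 7 and 6.50 in MPP KO and WT, and 7 and 9.50 in LT-HSC KO and WT. KO means were therefore above WT means in MPPs and below them in LT-HSCs at all 4 genes, and among LT-HSCs the lowest counts were those of KO 1 and KO 2. The within-cell-type difference, KO minus WT, averaged −1.75 at Runx1, −0.42 at Runx2, −1.58 at Runx3 and −1 at Cbfb (exact permutation p = 0.283, 0.8, 0.5 and 0.45). The test of a difference between cell types in the genotype effect gave p = 0.167, 0.233, 0.0833 and 0.150 (exact permutation). Without LT-HSC KO 1 and KO 2 the averages for Runx2 and Runx3 turned to 2.25 and 0.75.

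The partners and targets of RUNX proteins were counted in the same gene windows. Of 33 listed cofactors and partners, 31 were in the gene table and 30 had enough regions to test. None passed after adjustment, and at an unadjusted exact permutation p under 0.05, 6 had more and 2 had fewer regions in MPPs, beside 16.7% and 9.07% of all windows. Erg, an ETS factor of stem cells, had 11, 9, 11 and 12 regions in MPP KO 1, KO 2, WT 1 and WT 2, against 3, 2, 8, 8 and 6 in LT-HSC KO 1, KO 2, KO 4, WT 2 and WT 3. Myb, a factor of proliferating progenitors, had 8, 9, 7 and 9 in MPPs and 3, 3, 6, 6 and 6 in LT-HSCs. Hipk2, a kinase that phosphorylates RUNX1 and its coactivators, had 9, 10, 10 and 11 in MPPs and 4, 5, 9, 8 and 6 in LT-HSCs. On the other side, Tal1, a partner of RUNX1 in stem cells, had 6, 6, 6 and 5 in MPPs and 11, 9, 9, 9 and 9 in LT-HSCs. Runx1t1, the corepressor gene fused to RUNX1 in the AML1-ETO leukaemia translocation, had 1, 1, 0 and 0 in MPPs and 6, 3, 2, 2 and 2 in LT-HSCs. The differences were 5.35 for Erg, 3.6 for Hipk2, 3.45 for Myb, −3.65 for Tal1 and −2.50 for Runx1t1 (exact permutation p = 0.0238, 0.0397, 0.00794, 0.00794 and 0.00794).

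All 34 listed RUNX targets were tested, and none passed after adjustment, while 8 had more and 2 had fewer regions in MPPs at an unadjusted exact permutation p under 0.05, again beside 16.7% and 9.07% of all windows. Gfi1b, a repressor of the erythroid and megakaryocyte lines, had 13, 14, 12 and 12 regions in MPPs, against 2, 6, 10, 10 and 11 in LT-HSCs. Mpo, the myeloperoxidase gene, had 8, 9, 9 and 11 in MPPs and 2, 2, 7, 6 and 5 in LT-HSCs. Cebpa, a factor of granulocyte and monocyte fate that both lists hold, had 9, 8, 9 and 9 in MPPs and 5, 6, 6, 7 and 5 in LT-HSCs. Ebf1, a B cell factor, had 2, 2, 3 and 2 in MPPs and 7, 5, 4, 4 and 5 in LT-HSCs, and Hmga2, an architectural factor of fetal stem cells, had 1, 0, 2 and 1 in MPPs and 2, 3, 3, 4 and 3 in LT-HSCs. The differences were 4.95, 4.85, 2.95, −2.75 and −2 (exact permutation p = 0.0317, 0.0159, 0.00794, 0.00794 and 0.0238). The median difference was 0.575 for cofactors and 0.975 for targets, beside 0.25 over all 18183 windows. No gene of either list had an unadjusted p under 0.05 by genotype.

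The genes whose number of regions ran most like each member over the 9 libraries were found by Pearson's r among 15599 to 15616 genes with windows that did not overlap it, and these values are descriptions. For Runx1 they were Fbxo45 (r = 0.992), Wdr53 (0.992) and Rnf168 (0.989), which neighbour one another and share regions. Runx2 was most like Tmem44, Lsg1 and Fam43a (0.990 each), which share regions too. Runx3 was most like Acd (0.993), Adgre5 (0.992) and Ppp1r3e (0.989). Cbfb had lower values, with Osbpl1a (0.950), Gm44064 (0.944) and Vat1 (0.941). At Runx1, Runx2, Runx3 and the genes most like them, LT-HSC KO 1 and KO 2 each had fewer regions than every other library. This was not so at Cbfb and the genes most like it, where LT-HSC KO 2 had as many regions as an MPP library.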

How the data were processed

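Sample groups came from the labels. Per the submitters' processing notes, the build was mm10 and the tools included MACS2 2.1.1 and Bowtie2, among others, with no roles stated. The authors deposited 1 narrowPeak list for each library, so peaks were not pooled. How reads were shifted or duplicates removed is stated nowhere in these sources. Each deposited peak carries a fold (ratio over local background), a −log10 p-value, a −log10 q-value, a display score and its coordinates. Score and p-value were not used here, and depth is unknown because no read counts were used.

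Peaks (540767 on chromosomes 1 to 19) overlapping by at least 1 bp were merged, and those at gene windows of RefSeq GRCm38.p6 were kept. Peaks were ranked within a list by −log10 q, ties broken by fold and then by order of position. Presence, rank and regions per gene window (windows with at least 3 regions) were tested over the whole table with Fisher's exact or exact permutation tests and Benjamini-Hochberg adjustment at 0.05 (Python 3.11.15, numpy 2.4.6, pandas 2.3.3, scipy 1.17.1). The tests were tested on simulated data. Deviations of same-numbered libraries from their group means correlated at −0.085 to 0.039, and the main tests did not treat replicate numbers as pairs. With so few libraries per group, these values cannot show whether same-numbered libraries shared a source.

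Regions were named if they contain a gene end, lie within 2 kb of a known Runx1 enhancer distance, are held by all libraries (up to 5 per gene), were called (up to 5 per direction) or had an unadjusted genotype p under 0.05 (up to 3). Outside this rule are the P2 regions, the Runx1 regions at 172.0, 38.9, −42.7, −48.1 and −78.1 kb, the Runx2 region at 129.0 kb and the Runx3 region at −66.1 kb. They and the non-overlap counts were chosen after their values were seen. List genes were named by size of difference, up to 3 per direction. The members and lists were chosen with earlier results of these data known. Alternatives were a stricter q-value (−log10 q of at least 5), regions from summits widened by 100 bp, a 50 kb window, other list lengths, linear ranks, ranks by fold, a replicate block, and leaving out libraries.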

Additional observations from a re-analysis of the deposited data

Results flagged for a closer look

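Of 72 groups of 4 or 5 libraries examined, 7 had a library whose gap to the nearest other, divided by the range of the group, exceeded the critical value. Chance gives about 1 in 20 for values without ties. That rate does not apply here, because counts and ranks set just past the list are often tied. Groups with all values tied could not be flagged. In the equal-length lists MPP WT 2 held 6 regions at Cbfb where the other MPP libraries held 7 (gap over range 1). In the full lists MPP KO 1 held 22 Cbfb regions, against 27 or 28 in the other MPP libraries (0.833). At the Runx1 region 205.2 kb from P1, MPP WT 2 ranked 9827 (0.845).

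At Runx3, LT-HSC WT 3 ranked 18875 at −61.6 kb (0.92) and 21962 at 82.8 kb (1), with the other LT-HSC libraries near or past the end of the equal-length list. At Cbfb, LT-HSC WT 3 ranked 3524 at 54.5 kb from the start, over D230025D16Rik (0.73), and MPP WT 2 ranked 1952 at 118.5 kb (0.926). No genotype effect differed between the cell types in the 36 results examined by exact permutation.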

How the results depend on the processing

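Of the recomputed values, 239 kept their direction and side of the threshold or stayed within 1.5 times the reported count, 53 counts moved, 2 became called with the same sign and 8 turned sign or reached 0, of which the Cbfb value in full lists also became called. In equal-length lists the presence calls towards MPPs were 4 at Runx1, 2 at Runx2, 1 at Runx3 and 0 at Cbfb, and with a 50 kb window they were 4 at Runx3 and 1 at Cbfb. Full lists gave 27.8 more regions in MPPs at Runx1 (adjusted p = 0.0342), 24.7 more at Runx3 (0.0410) and 12.8 more at Cbfb (0.0410, exact permutation), where 58% of all windows were called, and a KO minus WT value of 0.83 at Runx2. Linear ranks gave 0 rank calls at Cbfb, and ranking by fold gave 3 at Runx1 and 2 at Runx3. With lists ranked by fold, MPPs had 2.20 more regions at Runx1, 3.50 more at Runx2 and 1.65 more at Runx3, and the difference at Cbfb was −1.20. The exact permutation p was then 0.254 at Runx1 and 0.476 at Runx3, where ranking by q-value gave 0.0238 for each. Without both LT-HSC KO 1 and KO 2, an alternative chosen after seeing the data, the KO minus WT value was 2.25 at Runx2 and 0.75 at Runx3. Rank calls were then 0 at all 4 genes, but also 0 over the whole table, where the smallest adjusted p was 0.0606 (exact permutation). That count therefore cannot show whether the calls rested on these libraries.

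Leaving out each library gave 16 to 18 presence calls at Runx1, 7 to 12 at Runx2, 8 to 13 at Runx3 and 2 to 7 at Cbfb; the highest values came without LT-HSC KO 4 (12 at Runx2, 13 at Runx3, 7 at Cbfb) and, at Cbfb, also without MPP KO 1 (7). Rank calls were 0 to 0 at each gene, because fewer labellings raised the smallest adjusted p to 0.0638 to 0.0730 over the whole table (exact permutation). MPP minus LT-HSC ranged over 4.25 to 5.75 at Runx1, 1.75 to 3.75 at Runx2, 5.50 to 7.75 at Runx3 and −1.75 to −0.50 at Cbfb. KO minus WT ranged over −2.50 to −1.25 at Runx1, −1.75 to 0.33 at Runx2, −2.75 to −1 at Runx3 and −1.75 to −0.25 at Cbfb. The Runx2 value was 0.25 with either LT-HSC KO 1 or KO 2 left out and 0.33 with LT-HSC WT 2 left out. Other causes were not tested.

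With libraries of the same label number as a replicate block, MPP minus LT-HSC was 6.67 at Runx1, 4.67 at Runx2, 9.67 at Runx3 and −0.33 at Cbfb, and KO minus WT was −1.67, −1, −0.67 and 0 at the same genes, with no adjusted call in either fit; 3 pairs allow no exact p below 0.25. Peak lists without reads limit precision, and presence depends on list length.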
